A study of Mus musculus with 2 samples.

Results

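The genes of the cytosolic ribosomal proteins were examined in 2 single-cell RNA libraries of mouse pancreatic tumours. The set held 88 of the 32285 genes in the count tables: those whose symbol starts with Rpl or Rps and a digit, together with Rpsa, Rplp0, Rplp1, Rplp2, Fau and Gm10260, and without the S6 kinase genes and symbols that carry -ps. Of the 88, 35 belonged to the small (40S) subunit and 51 to the large (60S) subunit, and 2, Rps19bp1 and Rpl7l1, matched by symbol only. At least 50 unique molecular identifiers (UMIs, each standing for 1 captured transcript) were counted for 86 of them over both libraries. The other two, Rpl10l and Rpl39l, copies of Rpl10 and Rpl39 known from the testis, had 0 UMIs in each library, which allows up to 0.0790 CPM (UMIs of the gene per 1000000 UMIs of the library) in one and 0.0909 in the other.

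The EL1 library came from FVB/N mice in which the elastase I promoter, active in pancreatic acinar cells, drives SV40 large T antigen and firefly luciferase (strain label EL1-Luc/EL1-Tag). The WTg library came from a cross of these mice with CAG-Mettl3 mice (EL1-Luc/EL1-Tag x CAG-Mettl3), in which the ubiquitous CAG promoter drives the open reading frame of Mettl3, the catalytic subunit of the m6A RNA methyltransferase, so both groups carried T antigen and luciferase. Mice of both groups were 6 weeks old, the number and sex of animals behind a library are not stated, and the Mettl3 line was made in C57BL/6 eggs, so that transgene and strain background cannot be told apart. With 1 library per genotype there was no replicate and no test. Every interval is an exact 95% interval for counting error only, and every difference is one between these libraries.

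A ribosome is assembled in the nucleolus from ribosomal RNAs and a full complement of small and large subunit proteins, and most of these proteins are needed in equal number, so their genes are transcribed strongly and in concert in every growing cell. Their mRNAs typically start with a C inside a stretch of pyrimidines, the terminal oligopyrimidine (TOP) motif, through which mTORC1 and LARP1 control their translation. Pancreatic acinar cells, which make digestive enzymes for secretion, are among the most ribosome-rich cells of the body.

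The start of the TOP mRNAs could be read for 67 of the 88 members in the RefSeq promoter table (build GRCm38.p6). An uninterrupted run of at least 8 pyrimidines within 20 bases of the annotated start was present in 31 of these 67 (46.3%), against 4965 of 27025 genes (18.4%). Purine runs of at least 8 bases, which are pyrimidine runs on the opposite strand, were found in 3 members (4.48%) and 16.6% of all genes. For a gene with several annotated starts, the start with the longest pyrimidine run was taken, in members and all genes alike. Purine runs were read at that same start. How the choice of that start bears on these shares was not tested, so the purine shares are not an independent control. Windows of 30 bases around the start are shown for members on which later results turn, with the longest pyrimidine run in capitals. Fau, chr19:6057937-6057966, plus strand; Rps6, chr4:86857348-86857377, minus strand; Rps18, chr17:33955646-33955675, minus strand; Rpl27a, chr7:109519185-109519214, plus strand; Rplp0, chr5:115559457-115559486, plus strand; Rpl13, chr8:123102340-123102369, plus strand.
Fau: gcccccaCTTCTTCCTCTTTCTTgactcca
Rps6: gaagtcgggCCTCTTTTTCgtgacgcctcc
Rps18: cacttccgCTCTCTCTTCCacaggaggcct
Rpl27a: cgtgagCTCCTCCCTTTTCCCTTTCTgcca
Rplp0: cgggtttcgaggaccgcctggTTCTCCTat
Rpl13: TTTCgcctgattttgattggcgtttgagat
In Fau, Rps6, Rps18 and Rpl27a the run spans the annotated start, whereas in Rplp0 it lies after it and in Rpl13 before it, with only its last part inside the window. These letters are a description and show no use of the motif. Rpl3 and Gm10260 were among the 21 members without an entry in that table.

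After barcodes with fewer than 500 genes, fewer than 1000 UMIs or more than 20% mitochondrial UMIs were left out, 1113 of 1621 EL1 barcodes and 905 of 1488 WTg barcodes remained, with medians of 26543 and 34836 UMIs per cell. Barcode sequences shared by the libraries numbered 15 before and 0 after this filter. Mettl3 was counted at 15.1 CPM in EL1 and 66.7 in WTg, in the direction of the labels. The cells were labelled epithelial, and all 18 acinar markers were detected in both libraries (11.1% and 14.1% of UMIs), but macrophage, lymphocyte and red cell groups were also present. Clustering without the ribosomal protein genes gave 17 clusters, of which 9 could be named from markers and 9 held at least 90% of their cells from 1 library.

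Ribosomal protein transcripts made up 13.1% of all UMIs in EL1 (interval 13.12 to 13.14) and 11.96% in WTg (11.94 to 11.97), a log2 ratio of WTg over EL1 of -0.13. The 40S genes accounted for 5.54% and 4.996% and the 60S genes for 7.58% and 6.95%. The balance of the subunits was therefore close in both libraries, with 0.731 40S UMIs per 60S UMI in EL1 and 0.719 in WTg. The median member had a log2 ratio of -0.12, beside -0.15 over all 13467 genes with at least 50 UMIs, so the members stood near the middle of the transcriptome. Lower values in WTg were found for 62 members and higher values for 24, beside 8754 lower and 4713 higher of the 13467 genes. Most members had high counts, which narrow the counting interval. It lay below 0 for 60 members, above 0 for 21 and held 0 for 5, without a like count for all genes. These signs depended on the scaling: trimmed-mean (TMM) scaling raised the median over all genes by 0.11 and gave 40 members higher and 46 lower, and leaving the 50 most abundant other genes out of the total gave 34 and 52. Those 50 genes, led by Try5, Reg1 and Ctrb1, held 34.3% of EL1 and 38.2% of WTg UMIs.

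As a group the members differed little. Only Gm10260 was higher in WTg by 2-fold or more among 86 members, where 6.85% of all genes were, and no member was lower by 2-fold or more, where 4.59% of all genes were. A log2 ratio within 0.25 of the members' median was found for 65 of 86, without a like count for all genes. The lower and upper quartiles of the ratios were -0.22 and 0.03 for the members and -0.42 and 0.15 for all genes. All genes were not matched to the members in abundance. The part of the members' high counts in their narrower spread and in the 2-fold counts was not tested. Levels ran in parallel between the libraries, with a Pearson correlation of log2 levels of 0.987 across 85 members without Gm10260, a description across genes of 2 libraries that share cell types and chemistry. Because 3′ libraries count the end of each transcript once, levels of different genes are given as CPM without a length correction. On that scale 64 members exceeded 1000 in both libraries and 81 exceeded 100.

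**Figure D1:**
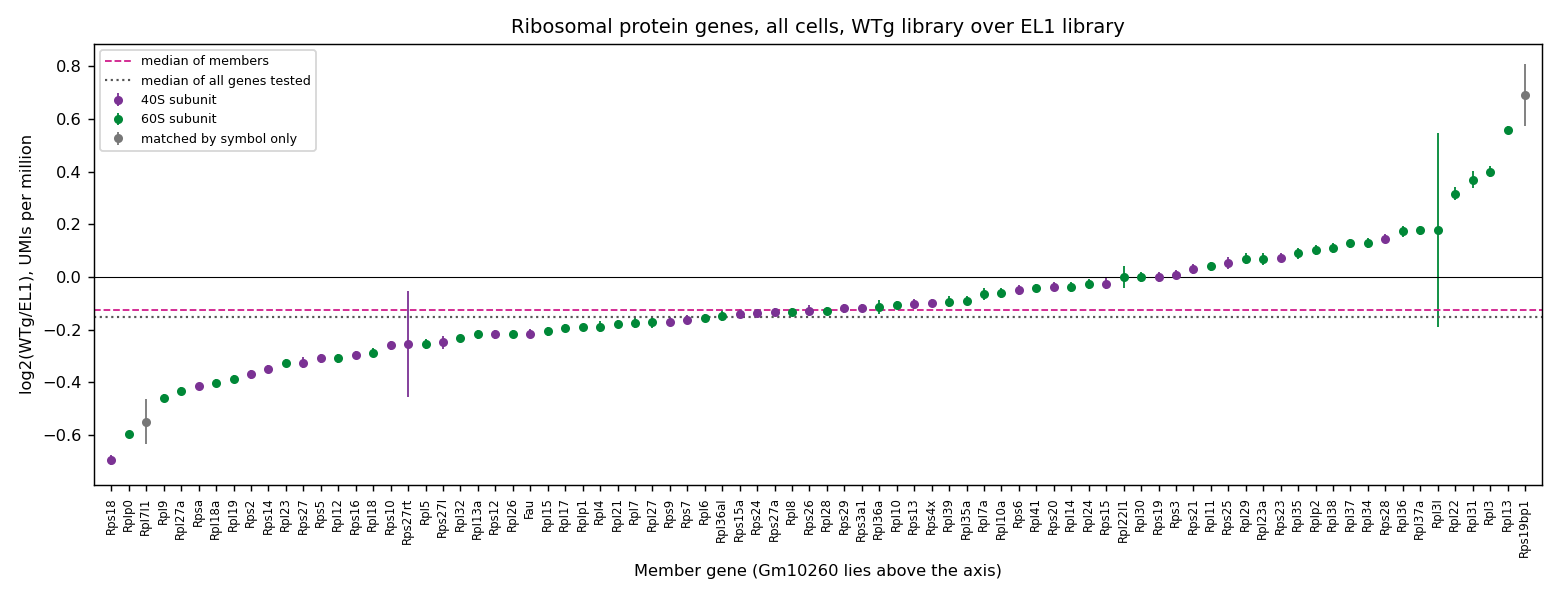
Each point is 1 ribosomal protein gene reported here, placed on the y axis by the log2 ratio of its CPM in WTg over EL1, with the 95% counting interval as a bar. Most points lie within 0.25 of the members' median of -0.12 (dashed), while Rpl13 lies at 0.56 and Rps18 at -0.69, and Gm10260, at 8.93, lies above the axis.

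The most abundant members were largely the same in both libraries. Rplp0, the scaffold of the 60S stalk that recruits elongation factors, led EL1 with 4122 CPM and reached 2725 in WTg. Rpl13, a 60S protein, led WTg with 2758 and stood at 1872 in EL1. Rps24, a 40S protein mutated in Diamond-Blackfan anaemia, was counted at 2849 and 2591. Rpl32 (2946 and 2506) and Rplp1 (2851 and 2499) were also among the 5 highest of EL1, and Rpl41, the smallest 60S protein (2654 and 2581), among those of WTg.

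Among members higher in WTg, Gm10260, a near copy of Rps18, led by far and is described with its parent gene. Rpl13 (chr8:123102350-123105244) had a log2 ratio of 0.56 (0.54 to 0.57). Rpl3, which lies at the peptidyl transferase centre, was counted at 888 and 1171, a log2 ratio of 0.40 (0.38 to 0.42). Rps19bp1, a nucleolar regulator of the deacetylase SIRT1 rather than a ribosomal protein, was counted at 26.6 and 42.9, a log2 ratio of 0.69. Further below came Rpl31 at 357 and 462 (0.37) and Rpl22 at 644 and 802 (0.32). Under TMM scaling Rpl13 reached 0.67 and Rpl3 0.51.

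Among members lower in WTg, Rps18, a 40S head protein, led with 1645 CPM in EL1 and 1017 in WTg, a log2 ratio of -0.69 (-0.71 to -0.67). Rplp0 followed with -0.60 (-0.61 to -0.59). Rpl7l1, a factor of 60S assembly that resembles Rpl7, was counted at 81.2 and 55.5 (-0.55). Rpl9 (2316 and 1686, -0.46) and Rpl27a (2251 and 1667, -0.43), both 60S proteins, came next. Under TMM scaling Rps18 stood at -0.58 and Rplp0 at -0.48, so neither changed direction.

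Over all cells, partners in a complex did not share a direction. In the stalk, where Rplp0 carries pairs of the acidic proteins Rplp1 and Rplp2, Rplp0 and Rplp1 were lower in WTg (-0.60 and -0.19) and Rplp2 was higher, with 1213 and 1304 CPM (0.10). The proteins of the 5S particle, which can bind MDM2 when ribosome assembly fails, diverged as well: Rpl5 was counted at 1482 and 1243 (-0.25) and Rpl11 at 1473 and 1514 (0.04). TMM scaling, which adds 0.11 to every ratio, left these signs as they were. In the 5 clusters with 20 cells or more of each library, however, Rplp1, Rplp2, Rpl5 and Rpl11 were each higher in WTg in 4 of 5, and Rplp0 was lower in 4 of 5. Rpsa, the 40S protein also known as the laminin receptor, was counted at 2774 and 2081 (-0.41).

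Both members made as fusions were lower in WTg. Fau, in which a ubiquitin-like domain precedes a 40S protein, was counted at 1766 and 1520 CPM (-0.22). Rps27a, the ubiquitin fusion, was counted at 2128 and 1941 (-0.13). Rps6, the substrate of the S6 kinases downstream of mTORC1, differed by -0.05 (1301 and 1256), a sign that TMM scaling turns. Rps19, the gene most often mutated in Diamond-Blackfan anaemia, had 1458 CPM in each library, a log2 ratio of 0.00 (-0.02 to 0.02).

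The X-linked members had similar values. Rpl10 was counted at 2275 and 2113 CPM (-0.11), Rpl36a at 669 and 618 (-0.12), Rpl39 at 1122 and 1051 (-0.09) and Rps4x at 1965 and 1833 (-0.10). All 4 were lower in WTg by about the median of the members, a direction that the 0.11 added by TMM scaling brings to about 0 for Rpl36a and Rpl10 and turns above 0 for Rpl39 and Rps4x. The 88 members lay on 20 chromosomes.

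Paralogues were compared with their parent genes in level and in ratio. Rpl22l1, which can take the place of Rpl22, was counted at 261 CPM in each library (0.00, -0.04 to 0.04), whereas Rpl22 was higher in WTg. Rps27l, a p53-responsive copy of Rps27, was counted at 867 and 730 (-0.25), beside 1155 and 921 (-0.33) for Rps27. Rps27rt, an intronless copy of Rps27, was counted at 12.7 and 10.7 (-0.25, -0.46 to -0.05). Rpl36al, counted at 1081 and 976, exceeded its X-linked parent Rpl36a in both libraries. Rpl3l, which replaces Rpl3 in heart and skeletal muscle, was near the floor at 3.32 and 3.76, and its interval of -0.19 to 0.55 held 0. Rpl7 was counted at 1117 and 990 (-0.17). Rps4l is not analysed here. The exons of 20 members overlapped those of another gene, 19 on the opposite strand and 1, Rpl19, on the same strand.

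Gm10260 was the single member that separated the libraries outright. It was counted with 17 UMIs in EL1 (0.448 CPM) and 7210 in WTg (218 CPM), a log2 ratio of 8.93 (8.25 to 9.71). Gm10260 (ENSMUSG00000069117) lies at chr13:97760072-97760632 on the minus strand of GRCm38, its transcript has no intron, and most of it overlaps Gm26619 on the other strand. Rps18 (ENSMUSG00000008668) lies at chr17:33951999-33956001, minus strand, and shares exonic bases with Vps52 on the other strand. The transcripts of 560 (Rps18) and 561 bases (Gm10260) in GENCODE vM21 were identical at 540 of 545 aligned bases (99.1%). The 5 mismatches were T243C, A394C, G428A, G488A and G534C, counted from the first base of the Rps18 transcript with the Rps18 base first, of which 4 are coding and the last is in the 3′ UTR, 27 bases before the end of Rps18. The stretches that hold them are shown because no other bases of the aligned part tell the genes apart. They are positions 237 to 494 of the coding part and 526 to 542 around the mismatch in the 3′ UTR, with the differing bases in capitals.
Rps18 coding: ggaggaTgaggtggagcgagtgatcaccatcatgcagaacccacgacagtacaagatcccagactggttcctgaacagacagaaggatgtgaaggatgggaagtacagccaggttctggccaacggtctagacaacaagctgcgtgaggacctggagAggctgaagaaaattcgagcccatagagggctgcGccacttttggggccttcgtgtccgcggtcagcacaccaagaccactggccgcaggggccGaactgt
Gm10260 coding: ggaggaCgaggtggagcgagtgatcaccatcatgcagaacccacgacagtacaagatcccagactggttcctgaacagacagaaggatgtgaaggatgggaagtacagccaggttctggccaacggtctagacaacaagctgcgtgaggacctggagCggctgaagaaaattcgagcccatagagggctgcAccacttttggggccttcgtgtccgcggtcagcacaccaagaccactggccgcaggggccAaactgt
Rps18 UTR: cctttgctGttaataaa
Gm10260 UTR: cctttgctCttaataaa
Reads that cover none of the 5 positions match both genes equally. The sources used here do not state how such reads were counted, so the split between the genes is uncertain.

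Added together, Rps18 and Gm10260 had 62463 UMIs in EL1 and 40789 in WTg, or 1645 and 1236 CPM, a log2 ratio of -0.41 (-0.43 to -0.40). Over all cells the sum was thus lower in WTg, at a smaller size than Rps18 alone. Among the 5 clusters with 20 cells or more of each library it was lower in 3 and higher in 2, with 420 and 449 CPM in cluster 5 and 1190 and 1328 in cluster 11. Gm10260 made up 0.0272% of the sum in EL1 and 17.7% in WTg. The share varied little among WTg cell groups: 17.2% in neuroendocrine-like cells, 18.2% in acinar-like cells, 16.5% in macrophage-like cells, 15.6% in T or NK-like cells and 17.7% in B-like cells. In EL1 it was 0.0374% in neuroendocrine-like cells, and 0 UMIs of Gm10260 were counted in acinar-like, macrophage-like, T or NK-like and B-like cells, beside 678, 632, 228 and 81 UMIs of Rps18, which allows up to 0.442%, 0.475%, 1.32% and 3.70%. At least 1 UMI of Gm10260 was found in 1.53% of EL1 cells and 83.2% of WTg cells. With every cell thinned to 2000 UMIs, these shares were 0.285% of 1051 cells (0.0589 to 0.832) and 32.1% of 836 cells (28.9 to 35.3); this excluded 62 and 69 cells below that depth. No named class of WTg lacked it: among thinned WTg lymphocytes 13 of 20 had a UMI, at a median of 6337 UMIs per cell before thinning. Whether the strain background, which differs between the libraries, has a part in this split was not tested.

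**Figure D2:**
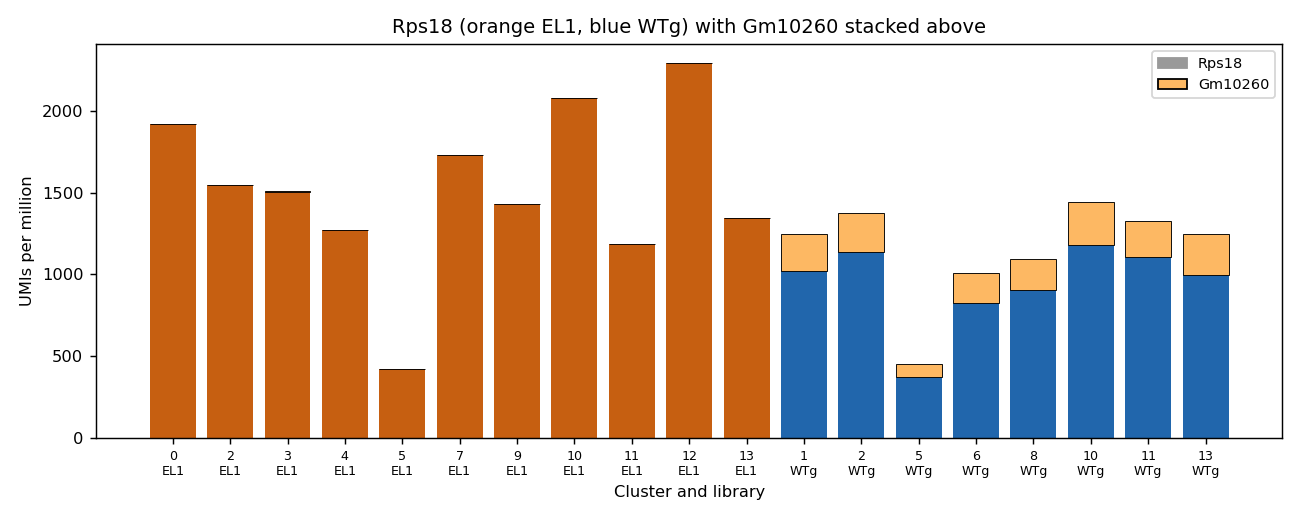
Bars give CPM of Rps18 (orange in EL1, blue in WTg) with Gm10260 stacked above (light orange) for each cluster and library with 20 cells or more. Gm10260 adds 75.9 to 265 CPM in the 8 WTg bars and at most 0.893 in the 11 EL1 bars.

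Across clusters the same contrast held. For 19 combinations of cluster and library with 20 cells or more, 11 of EL1 and 8 of WTg, levels were compared in CPM. Among 84 members with at least 1000 UMIs, only Gm10260 had every WTg value above every EL1 value, where 0.0297% of 6738 genes did, and no member had every EL1 value above every WTg value, where 0.0594% of genes did. Rps18 ranged from 420 to 2297 in EL1 and from 373 to 1181 in WTg, so its ranges overlapped on this scale. Counted per 1000 ribosomal protein UMIs, which removes the share of the whole set, Gm10260 and Rpl35 were higher in every WTg value (0.0445% of genes) and Rps18 was lower in every WTg value (0.0297% of genes). On that scale Rps18 ranged from 10.8 to 14.8 in EL1 and from 7.34 to 9.20 in WTg. Rpl35, a 60S protein at the exit tunnel, ranged from 5.67 to 7.25 in EL1 and from 7.26 to 8.23 in WTg, values that meet at their ends. For genes outside the set, the scale per 1000 ribosomal protein UMIs brings in the share of the set. That share ran from 2.83% to 17.5% over the 19 combinations. The shares of all genes on this scale are therefore not a like comparison for the members. Clusters of 1 library are cells of the same tumour sample and no replicates.

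The share of ribosomal protein UMIs varied far more between cell groups than between libraries. In T or NK-like cells it was 41.3% in EL1 (5 cells, 31.3 to 50.4%) and 44.7% in WTg (12 cells, 34.7 to 49.0%), and the median T or NK-like cell held 7557 and 7417 UMIs. In B-like cells it was 25.4% in EL1 (5 cells) and 32.9% in WTg (8 cells). Lymphocytes therefore headed both libraries, and they supplied 7 of the 22 EL1 cells and all 17 WTg cells above 30%. The other EL1 cells above 30% were 4 acinar-like, 2 neuroendocrine-like and 9 unnamed cells. Among clusters with 20 cells or more, the share ran from 2.83% in EL1 cells of cluster 5, a cluster with a median of 1794 UMIs per cell led by the nuclear RNAs Malat1 and Kcnq1ot1, to 17.5% in EL1 cells of cluster 12, led by the gastric proton pump genes Atp4b and Atp4a. Cells of cluster 12 also had a median of 7.95% mitochondrial UMIs, against 4.11% in all EL1 cells, and the part of this in the share was not tested. Lymphocytes also differed in subunit balance, with 0.936 and 0.934 40S UMIs per 60S UMI in T or NK-like cells and 0.961 and 0.988 in B-like cells. Macrophage-like cells stood between, at 0.840 and 0.818.

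**Figure D3:**
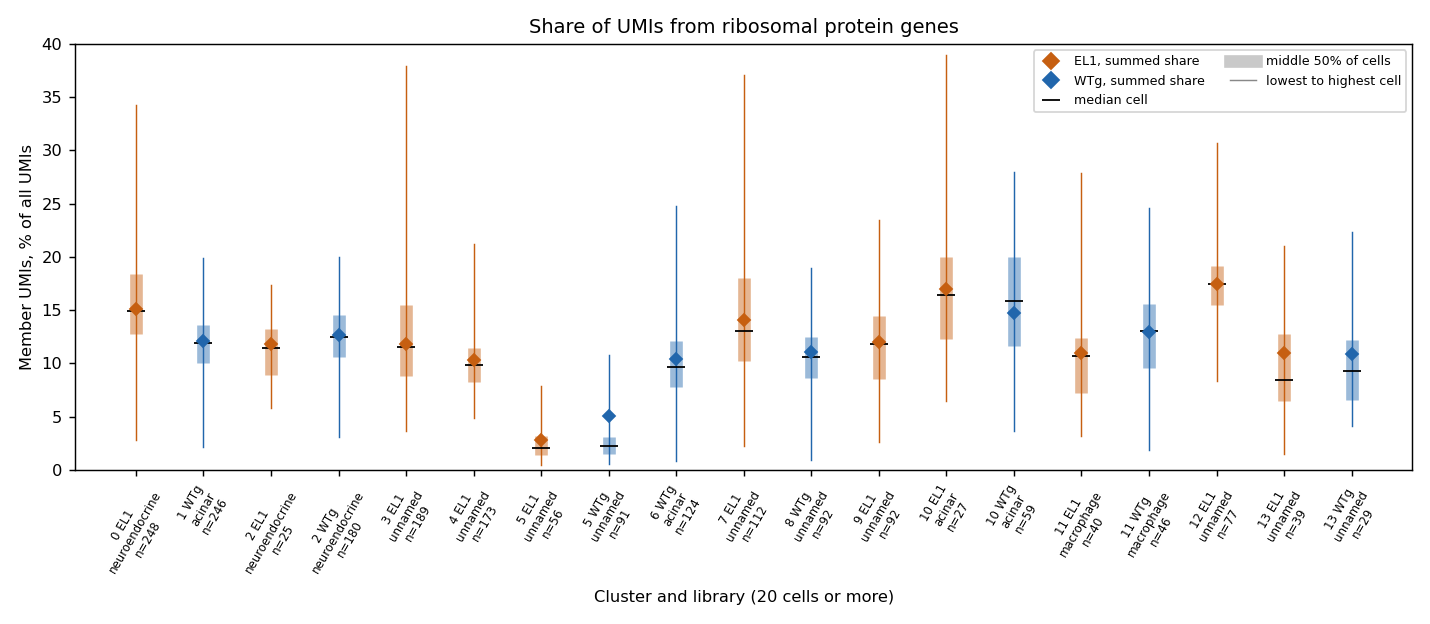
The y axis gives ribosomal protein UMIs as a percentage of all UMIs, for each cluster and library with 20 cells or more. Diamonds are summed shares, black lines the median cell, boxes the middle 50% of cells and thin lines the lowest to the highest cell. Cluster 5 lies lowest at 2.83% and 5.08%, cluster 12 highest at 17.5%, and cells within a cluster spread more widely than the libraries differ.

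Neuroendocrine-like cells had a lower share in WTg than in EL1, 12.7% against 14.9%, a log2 ratio of -0.22 (-0.23 to -0.22). The class was held by different clusters: cluster 0, led by Resp18, Penk and Tff3, gave 248 of its 273 EL1 cells, and cluster 2, led by Serpina1 genes and Pcsk2, gave 180 of its 182 WTg cells. Within cluster 2, which both libraries shared (25 and 180 cells), the order was the opposite, 11.8% in EL1 and 12.7% in WTg (0.10). In the class 71 of 86 members were lower in WTg and 15 higher, with a median member of -0.20 beside -0.12 over all genes. Of all 10693 genes with at least 50 UMIs in the class, 6708 were lower. Within cluster 2 the counts were 26 lower and 60 higher, with medians of 0.13 and -0.25. Of all 9157 genes there, 6227 were lower and 2930 higher. In the whole class, 2 members were past 2-fold higher, Gm10260 among them, where 2.97% of all genes were. Past 2-fold lower were 0, where 4.4% of all genes were. Rps19bp1 was counted at 30.1 and 50.8 CPM in these cells (0.76). The lowest ratios were those of Rps18 (1891 and 1148, -0.72), Rps27rt (18.3 and 12.5, -0.55) and Rps14, a 40S protein lost in 5q- syndrome (3121 and 2136, -0.55).

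Acinar-like cells were also lower in WTg, at 11.7% against 13.7% in EL1 (-0.23, -0.24 to -0.22). Most of the 32 EL1 cells were the 27 of the shallow cluster 10, with a median of 3969 UMIs, but these gave 177627 of the 391007 EL1 UMIs of the class. The other 5 cells gave most, with 120967 UMIs from 3 cells of cluster 1 (12.7% ribosomal protein) and 92413 from 2 cells of cluster 6 (8.88%), so that the EL1 values of the class rest largely on 5 cells, whereas the 429 WTg cells came mainly from clusters 1 and 6. Within cluster 10 the shares were 17.0% and 14.7% (-0.21) at similar depths. In the class 72 of 85 members were lower in WTg, with a median of -0.18 beside 0.06 over all genes. Of all 10055 genes with at least 50 UMIs in the class, 4769 were lower. Past 2-fold higher were 2 members, where 14.1% of all genes were: Gm10260, with 0 UMIs in EL1 and 3779 in WTg, and Rps19bp1, with 6 and 670 UMIs (1.32, 0.19 to 2.77). Past 2-fold lower were 0 members, where 10.1% of all genes were. Rpl35a, a 60S protein, was next with 1222 and 1378 CPM (0.17). At the other end stood Rps18 (1734 and 967, -0.84), Rps12 (2596 and 1711, -0.60) and Rps26 (1465 and 969, -0.60), all of the 40S subunit, and 34 of the 35 40S genes were lower. Within cluster 10 alone 58 of 82 members and 23 of 34 40S genes were lower, beside 695 of 906 genes. The order against all genes was the opposite there, with a median member of -0.16 beside -0.42.

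In the macrophage-like cells of cluster 11 the order was the opposite: the share was 10.996% in EL1 (40 cells) and 12.99% in WTg (46 cells), and the log2 ratio was 0.24 (0.23 to 0.25). Of 84 members, 78 were higher in WTg, with a median of 0.25 beside -0.03 over all genes. Of all 4093 genes with at least 50 UMIs in these cells, 1937 were higher. Past 2-fold higher was 1 member, Gm10260, where 2.71% of all genes were, and past 2-fold lower 0, where 5.2% of all genes were. The median depth differed in the same direction, 6882 and 18920 UMIs per cell, and its part in the result was not tested.

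In the 5 clusters that held 20 cells or more of each library (2, 5, 10, 11 and 13, with 187 EL1 and 405 WTg cells), the summed share of the pooled cells was higher in WTg (log2 0.13). The pool was not matched by cluster, as cluster 2 gave 25 of its EL1 cells and 180 of its WTg cells. The part of this in the pooled ratio was not tested. Cluster by cluster, the share was higher in clusters 2, 5 and 11 and lower in clusters 10 and 13, where cluster 13, led by Fos and Klf2, had 11.003% and 10.9%. In cluster 5 the summed shares were 2.83% and 5.08%, but the median cell had 2.05% in EL1 and 2.27% in WTg. Among 81 members with at least 50 UMIs in each of the 5 clusters, 18 were higher in WTg in all 5, where 6.89% of 508 genes were, and 1 was lower in all 5, where 7.28% of genes were. That 1 was Rps18, between -0.82 and -0.10. Rpl13, Rpl3 and Rpl22 were higher in all 5 with 4 intervals above 0. Rps19, without difference over all cells, was higher in all 5 with 3 intervals above 0. The sum of Rps18 and Gm10260 differed by -0.06 in the pooled cells.

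Rpl13 divided the EL1 clusters themselves. Per 1000 ribosomal protein UMIs, it gave 11.9 to 13.2 in EL1 cells of clusters 0, 3, 4, 5, 7, 9 and 13, but 23.4 in cluster 2, 17.4 in cluster 10, 21.1 in the macrophages of cluster 11 and 23.0 in cluster 12. The 8 WTg values ran from 18.6 to 26.2. The higher EL1 clusters thus approached or reached the WTg level, and a line at 15, chosen after these values were seen, separated the 7 lower ones. Among the members reported here, Rps28, a 40S protein, and Rpl22 followed the same division at a smaller size. They were found by a search of the members with the clusters divided by Rpl13. The share of all genes that divide this way was not counted. Rps28 gave 8.74 to 10.6 in the 7 lower EL1 clusters, 11.6 to 13.6 in the other 4 and 11.1 to 15.7 in WTg. Rpl22 gave 4.55 to 5.30, 5.31 to 5.98 and 5.91 to 7.12 in the same order, values that nearly meet between the EL1 groups.

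The division was present within single cells. In cells with at least 1000 ribosomal protein UMIs, the median of Rpl13 was 11.5 to 12.2 per 1000 in the lower EL1 clusters other than 5, 19.6 to 24.3 in EL1 cells of clusters 2, 11 and 12, and 18.0 to 23.6 in WTg clusters other than 5, which held too few such cells in either library. Genes around Rpl13 moved with it in part: the 28 other genes within 2 Mb had a median, relative to all genes, of -0.49 to 0.24 in the 7 lower clusters, below 0 in 6 of them, and of -0.18 to 0.52 in the other 12 combinations, below 0 in 1.

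**Figure D4:**
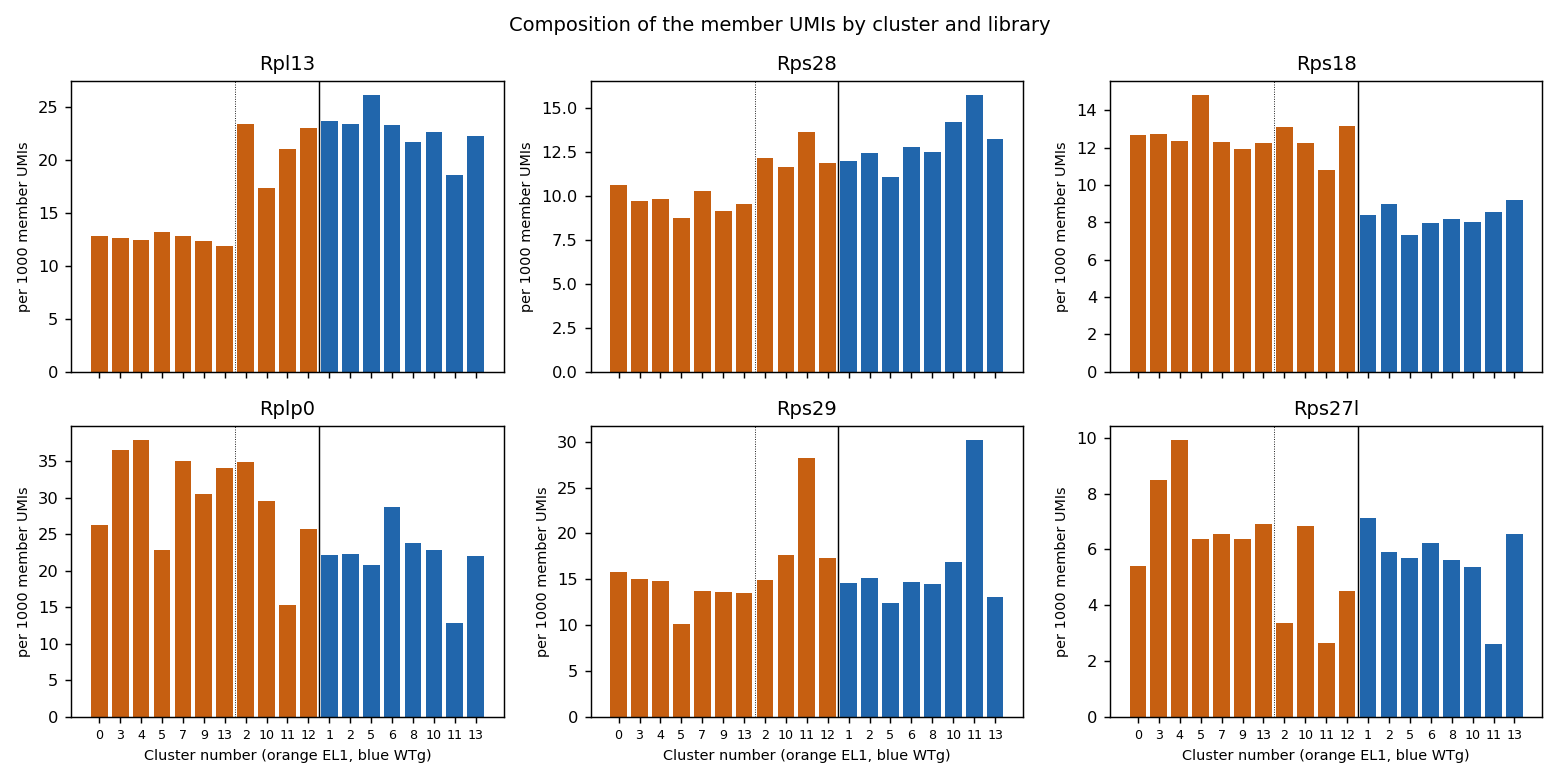
Bars give UMIs of 6 members per 1000 ribosomal protein UMIs for each cluster with 20 cells or more (orange EL1, blue WTg, a solid line between libraries and a dotted line after the 7 EL1 clusters with Rpl13 below 15). Rpl13 is low in those 7 EL1 clusters only, Rps18 is lower in all 8 WTg bars, and Rplp0 is low and Rps29 high in the macrophages of cluster 11 in both libraries.

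Cell groups also had a ribosomal protein profile of their own. Macrophage-like cells had 28.2 and 30.2 UMIs of Rps29 per 1000 ribosomal protein UMIs in EL1 and WTg, against a median of 14.8 over the 19 combinations. Fau (25.6 and 24.2) and Rpl39 (12.8 and 14.1) were likewise highest in these cells. Rplp0 was lowest there, at 15.3 and 12.8, and highest at 37.9 in EL1 cells of cluster 4, led by Fst. Rps27l showed the same order, with 2.64 and 2.60 in macrophages and 9.93 in cluster 4. Rpl22l1 ranged from 0.751 in cluster 12 to 5.56 in EL1 cells of cluster 5. Rpl5 ranged from 6.88 in WTg macrophages to 15.6 in the same EL1 cells of cluster 5. Those cells held only 3776 ribosomal protein UMIs, and WTg cells of cluster 5 gave 2.45 for Rpl22l1 and 11.5 for Rpl5.

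In EL1 cluster 12 the members on chromosome 15 were low. All 5 members on chromosome 15 were below the median of the 19 combinations: Rpl37 by -0.85, Rpl30 by -0.92, Rpl8 by -0.82, Rpl3 by -0.28 and Rps19bp1 by -1.64 (log2, per 1000 ribosomal protein UMIs). Rpl37 (6.17 per 1000), Rpl30 (5.86) and Rpl8 (7.96), all of the 60S subunit, had their lowest value of all 19 combinations in this cluster. The other genes were counted as a share of the UMIs outside the set. The 249 of them on chromosome 15 with at least 1000 UMIs had a median of -0.56, with 199 (79.9%) below 0. The medians of the other 19 chromosomes lay between -0.10 and 0.32. Members and other genes of that chromosome were thus low together in this cluster. Low members were not confined to it: Rpl41 on chromosome 10 (12.5 per 1000, against a median of 21.2), Rpl22l1 on chromosome 3 (0.751 against 2.17), Rpl9 on chromosome 5 (12.5 against 15.2) and Rps9 on chromosome 7 (9.80 against 11.8) had their lowest value there too. Copy number was not measured.

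On chromosome 5 the members were high in several clusters, most of them of EL1. In EL1 cells Rpl9, Rpl5, Rplp0, Rpl6 and Rpl21 had a median of 0.23 in cluster 3, 0.24 in cluster 4, 0.43 in cluster 7 and 0.41 in cluster 13, with 0 of 5 below the reference in each. Medians of WTg cells ran from -0.32 in cluster 11 to 0.16 in cluster 6, where 0 of 5 were below the reference as well. The 482 other genes of chromosome 5 had a median of 0.35 in cluster 4, where other chromosomes had 0.05 to 0.19, and of 0.17 in cluster 7, where others had -0.06 to 0.04. In cluster 3 it was -0.12, against -0.34 to -0.16. In EL1 cells of cluster 13 it was 0.14, against -0.11 to 0.10. Of these other genes, 58.9% were below the reference in cluster 3, 9.54% in cluster 4, 23.4% in cluster 7 and 30.1% in cluster 13. The share was 70.3% in WTg cells of cluster 6. In cluster 0 the 5 members had a median of -0.17 and the other genes of chromosome 5 one of 0.03, below the 0.24 to 0.38 of other chromosomes. Rplp0, Rpl9 and Rpl5, which were lower in WTg over all cells, are on this chromosome. Which part the chromosome has in those ratios was not tested.

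**Figure D5:**
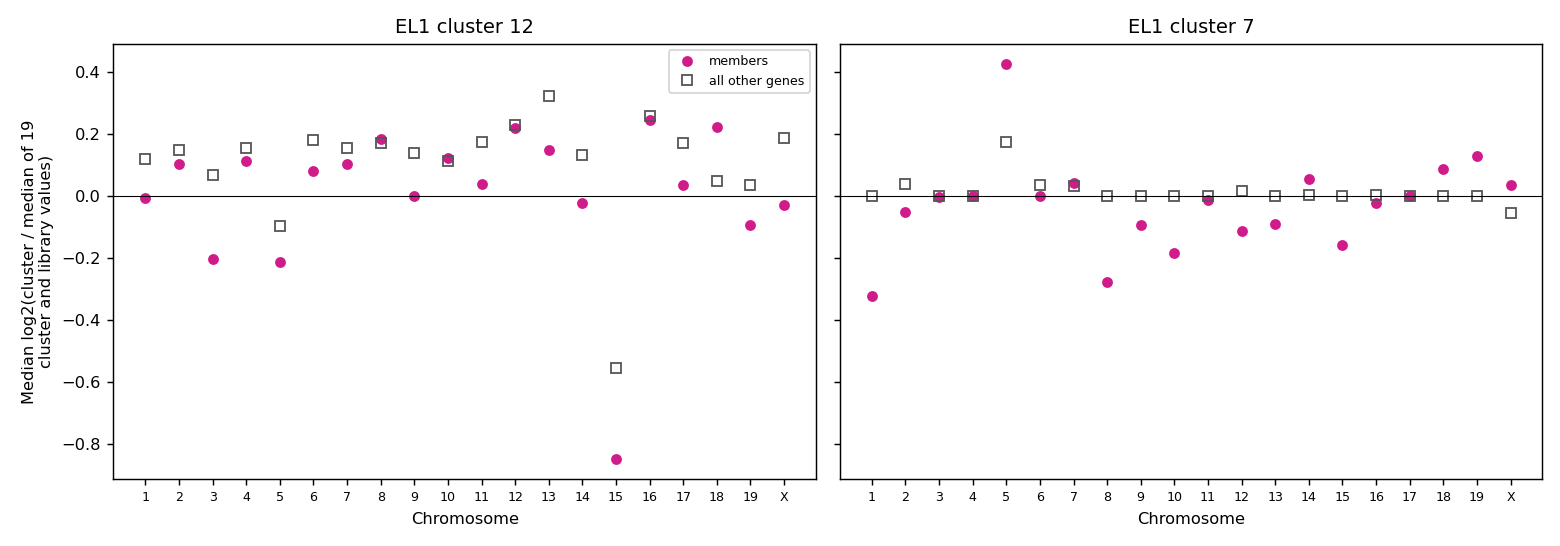
Points give, for each chromosome, the median log2 value of ribosomal protein genes (filled) and of all other genes (open squares). Values are those of EL1 clusters 12 and 7 over the median of the 19 combinations of cluster and library. Ribosomal protein genes are counted per 1000 ribosomal protein UMIs, all other genes as a share of the UMIs outside the set. In cluster 12 both medians of chromosome 15 lie lowest, at -0.85 and -0.56, and in cluster 7 both medians of chromosome 5 lie highest, at 0.43 and 0.17.

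Genes that make or use ribosomes were compared through lists. The 78 mitochondrial ribosomal proteins, which serve the separate ribosomes of mitochondria, had a median log2 ratio of -0.42, with 72 lower in WTg and 6 higher and none past 2-fold. Mrps35 was counted at 37.6 and 20.6 CPM (-0.87) and Mrpl35 at 52.4 and 29.4 (-0.84), and at the other end stood Mrpl52 (0.34) and Mrpl33 (0.16). The 55 genes of ribosome biogenesis had a median of -0.28, with 48 lower and 7 higher. Of all genes, 8754 of 13467 were lower. Polr1a, the large subunit of RNA polymerase I, was counted at 41.7 and 21.8 (-0.94) and Nhp2, a pseudouridylation factor, at 100 and 61.05 (-0.72), whereas the RNA polymerase I factor Ubtf (0.15) and the 60S assembly factor Bop1 (0.15) were higher. Both lists had medians further below 0 than the -0.12 of the cytosolic ribosomal proteins and the -0.15 of all genes. Cell classes differed from these values. Biogenesis genes had a median of 0.18 in acinar-like cells, with 36 higher and 19 lower (0.06 over all genes), of -0.05 in neuroendocrine-like cells, with 24 higher and 31 lower (-0.12), and of -0.19 in macrophage-like cells, with 7 higher and 22 lower (-0.03). Mitochondrial ribosomal proteins had -0.26, -0.22 and 0.11 in the same order, with 30 higher and 21 lower in macrophage-like cells.

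The 41 translation factors and ribosome partners had a median of -0.08, with 24 lower and 17 higher. Eef1a2, the elongation factor isoform of neurons and muscle, was counted at 2.40 and 61.8 CPM (4.69, 4.38 to 5.01) and was the only gene of the list past 2-fold. Eif3b was counted at 204 and 360 (0.82), Eif3j1 at 243 and 137 (-0.83) and Eif6, which keeps the subunits apart, at 155 and 119 (-0.38). The 19 genes of mTORC1 and TOP mRNA control had a median of -0.25, with 15 lower and 4 higher. Lamtor1, an anchor of mTORC1 at the lysosome, was counted at 94.49 and 52.9 (-0.84) and Mlst8, an mTORC1 subunit, at 5.22 and 3.24 (-0.69). Eif4ebp1, the translation repressor that mTORC1 releases (67.5 and 96.1, 0.51), and Larp1, which binds TOP mRNAs (113 and 142, 0.33), were higher. The 0.11 that TMM scaling adds leaves the medians of the mitochondrial, biogenesis and mTORC1 lists below 0 and turns that of the translation factors above it.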

How the data were processed

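Single-cell suspensions of 1 tumour library per genotype were profiled with 10x Genomics 3′ v3.1 chemistry. The authors deposited raw UMI counts per gene and barcode, made with Cell Ranger 6.0.2 per the file headers on GRCm38 per the labels, which also name R 4.1 and Seurat 4.0.5. The use of intronic reads is not given in the sources used here. Dense tables of a part of the same barcodes were not used.

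Counts were summed per library and cell group and divided by all UMIs. Barcodes under 500 genes or 1000 UMIs, or with over 20% of UMIs from mitochondrial genes, were removed. Ratios carry exact conditional binomial 95% intervals, shares exact binomial ones. UMIs remove amplification copies, and the intervals cover counting error only. The interval code was tested on simulated data. Cells were clustered (scanpy 1.11.5, Leiden with leidenalg 0.10.2, 2000 variable genes, 30 components, resolution 1) without ribosomal protein genes, cell cycle genes (lists of Seurat 5.3.0), Mettl3 and Plk1, and classes are "-like" from marker lists, so that they can differ from the study's. Scrublet marked 4 cells in each library, which were kept and left out as an alternative. Free RNA was not removed. TMM factors came from edgeR 4.0.16 (R 4.3.3), scipy 1.17.1 and Python 3.11.15 did the rest.

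The gene set, gene lists and named genes were chosen with earlier results of these data known. Named were, among members with at least 50 UMIs, the 5 highest levels in each library, the 5 highest and 5 lowest ratios over all cells, the 3 highest and 3 lowest within neuroendocrine-like and acinar-like cells, members of set roles, paralogues with their parents, and the 2 highest and 2 lowest genes of each pathway list. Rpl31, Rps28, Rpl35, Rpl37, Rpl30, Rpl8, Rpl6, Rpl21, Rps9 and Rps29 were named after their values were seen. Some members are counted but not reported by name here.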

Additional observations from a re-analysis of the deposited data

Results flagged for a closer look

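The summed share of ribosomal protein UMIs differed between the libraries in opposite directions in 2 cell groups. Its log2 ratio of WTg over EL1 was -0.22 in neuroendocrine-like cells and 0.24 in macrophage-like cells. The difference between these ratios was not tested. The neuroendocrine-like value is one between different clusters, and the macrophage-like value goes with a median depth of 6882 UMIs per cell in EL1 and 18920 in WTg.

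Gm10260 was also counted in barcodes that the cell filter left out. These held 85 UMIs of it in 583 WTg barcodes and 1 UMI in 508 EL1 barcodes, beside 615 and 504 UMIs of Rps18.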

How the results depend on the processing

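Of 80 values computed under an alternative, 45 stayed within the counting interval or count of the reported value, 31 left it in the same direction and 4 changed direction. The alternatives restricted to clusters that both libraries share were chosen after seeing the data. With the cells of the 5 such clusters pooled, in unequal parts in each library, the log2 ratio of the summed share turned from -0.13 to 0.13. The median member turned from -0.12 to 0.15 and the 40S to 60S balance from -0.02 to 0.00077. Gm10260 stood at 7.63 or more (0 UMIs in EL1, taken as 3) and its sum with Rps18 at -0.057. In cluster 2 alone the neuroendocrine-like ratio turned to 0.10, and in cluster 10 alone the acinar-like ratio was -0.21. The cause was not tested.

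The summed share over all cells was -0.16 with all deposited barcodes, -0.13 with stricter filters or without cells of 10000 genes or more, -0.021 with TMM scaling, -0.14 without mitochondrial UMIs in the total, -0.046 without the 50 most abundant other genes and -0.15 with cells weighted equally. The median member was -0.15 with all barcodes, -0.0095 with TMM scaling, -0.034 without the 50 genes and -0.14 with equal weights. TMM scaling gave 2 members past 2-fold in place of 1, and equal weights a 40S to 60S ratio of -0.0043. Rps18 with Gm10260 was -0.43 with all barcodes, -0.30 with TMM scaling and -0.32 without the 50 genes.

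The neuroendocrine-like ratio was -0.34 with ribosomal protein genes kept in the clustering, -0.22 and -0.20 at resolutions of 0.5 and 2, -0.13 without the 50 genes and -0.30 with equal weights. The acinar-like ratio was -0.15, -0.21, -0.21, -0.20 and -0.49 in the same order. The macrophage-like ratio was 0.22 at resolution 2 and 0.26 with equal weights. No paired analysis was possible because each genotype had 1 library and no result came from a test. Depth limits Rpl3l, Rps27rt and the cell groups under 20 cells, where counts were few.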

Other observations

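Barcodes left out for mitochondrial content were poor in ribosomal protein transcripts, with 3.11% of UMIs in 393 EL1 barcodes and 3.19% in 440 WTg barcodes. The other removed barcodes had 5.63% and 4.12%. Within the kept cells the median share was lowest in the shallowest depth group of WTg, at 9.51% and a median of 4327 UMIs, and lay between 11.6% and 12.4% in the other depth groups of both libraries.

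The rows of ribosomal protein pseudogenes with -ps in their symbol, which the set left out, held few UMIs. Rpl10-ps3 was counted at 11.9 CPM in each library, Rpl9-ps6 at 11.9 in EL1 and 9.54 in WTg and Rpl36a-ps1 at 4.27 and 2.82. Rpl9-ps1 had 0 UMIs in EL1 and 1 in WTg, and Rpl36-ps4 had 0 in both. None of these rows showed the contrast of Gm10260. Copies of ribosomal protein genes under other symbols were not examined.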
